A study of Homo sapiens with 8 samples.

Results

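The siSF3B1_Hx libraries come from Panc1 cells, an established human line of pancreatic ductal adenocarcinoma, that were given an siRNA against SF3B1 and kept at 1% oxygen for 8 h, and they were set against siCtrl_Hx libraries from cells given a control siRNA and kept at 1% oxygen. The comparison took all 3 siSF3B1_Hx and all 3 siCtrl_Hx libraries, 6 of the 8 samples, and used the genes whose mean log2 CPM over the 8 samples was above 0, which are 13112 of the 15176 genes listed. CPM is a gene's reads scaled to the size of its library, and 1 unit on the log2 scale is a 2-fold difference. Higher and lower are therefore relative to the rest of a library, and a change in total RNA per cell would not be seen. Values are the submitters' log2 CPM per gene and library. The remaining libraries, siCtrl_Nx, are 2 from control siRNA cells at 21% oxygen. The labels do not make clear whether the 8 h also apply to siCtrl_Hx, so time at 1% oxygen and siRNA cannot be told apart if it differed. They give neither the siRNA sequence nor whether each library of a group had its own culture. The p-values set the difference between group means against the spread of libraries within groups, and that spread may therefore be technical. Libraries are called by the numbers in their titles (3, 6 and 9 for siSF3B1_Hx, 2, 5 and 8 for siCtrl_Hx, 1 and 4 for siCtrl_Nx), and values are given in that order.

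SF3B1 is the largest subunit of SF3B, the part of the U2 small nuclear ribonucleoprotein (snRNP) that grips the branch point adenosine of an intron when the spliceosome assembles. Nearly all introns of the major class need it, so its loss can leave introns in, skip exons or lower the stable mRNA of a gene, and a gene-level read count sees only the sum of these. Single-exon genes need no splicing, and small nucleolar RNAs (snoRNAs) are trimmed from the introns of other genes. At low oxygen, HIF-1, a pair of HIF1A and ARNT, activates glycolytic and other adaptive genes.

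Each library held 20496492 to 25257173 reads over the listed genes, and the 10 most abundant genes took at most 5.58% of the reads. The submitters' scaling implied library sizes of 0.927 to 0.949 times the read total in siSF3B1_Hx and 1.02 to 1.03 times in siCtrl_Hx. With plain read totals instead, the median log2 fold change of all genes moved by -0.13, and where this turns a list's median or balance of calls given here, that is stated beside it. Epithelial and ductal genes were present at both siRNAs. Over the 6 hypoxic libraries KRT8 lay between 11.3 and 12.6 log2 CPM, KRT18 between 9.98 and 11.1, KRT19 between 9.97 and 11.1 and SOX9 between 7.37 and 7.78. KRT7, another ductal keratin, was low at 1.69 to 3.60. Of the markers sought for other cells, 10 are in the table. The 3 for blood and endothelium (CD14, CD68, HBA1) summed to 171 to 231 CPM in siSF3B1_Hx and 123 to 167 CPM in siCtrl_Hx, nearly all of it CD68, which many cell types carry in lysosomes, while CD14 lay at 1.93 to 3.23 CPM in siSF3B1_Hx and 0.959 to 1.21 CPM in siCtrl_Hx and HBA1, a hemoglobin chain, under 1 CPM in all. The 6 fibroblast markers summed to 36.1 to 59.4 CPM in siSF3B1_Hx and 35.9 to 66.9 CPM in siCtrl_Hx. COL1A1 made up much of these sums, while THY1 lay at 18.3 to 19.1 CPM in siSF3B1_Hx and 7.02 to 7.47 CPM in siCtrl_Hx and rose by 1.37 (SE 0.095), and RGS5 lay at 0.992 to 1.22 CPM in siSF3B1_Hx and 2.38 to 3.07 CPM in siCtrl_Hx and fell by 1.25 (SE 0.19). SYP, the islet marker, lay at 2.24 to 3.09 CPM in siSF3B1_Hx and 4.90 to 6.94 CPM in siCtrl_Hx. Their part in the results was not tested, and in bulk RNA fewer cells of a type and less RNA per cell cannot be told apart.

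The targeted mRNA was lower in every siSF3B1_Hx library. SF3B1 (Entrez gene 23451, GRCh38 chr2:197389784-197435091, minus strand, 25 exons at most) was measured at 5.44, 5.18 and 5.41 log2 CPM in siSF3B1_Hx, 8.86, 8.74 and 8.70 in siCtrl_Hx and 8.88 and 8.87 in siCtrl_Nx. The knockdown libraries lay below all others with no overlap, and the difference from siCtrl_Hx was -3.42 on the log2 scale (SE 0.078, limma with Benjamini-Hochberg adjustment, adjusted p = 9.69e-09), the lowest of all tested genes above a mean of 1 log2 CPM.

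The change reached most of the transcriptome. At an adjusted p under 0.05, 8650 of 13112 genes were called, 66.0%, of which 4595 were higher in siSF3B1_Hx (35.0% of the genes tested) and 4055 lower (30.9%), with a median log2 fold change of 0.03 over all genes. With plain read totals the split was 3551 higher and 4955 lower, so that 41.7% of called genes were higher in place of 53.1%. Most called changes were moderate: the median size was 0.62 on the log2 scale, and 35.9% were under 0.5. A change of at least 2-fold was called for 1842 genes (14.0%), more of them lower (1137) than higher (705), and 95 fell and 55 rose by at least 2 log2 units. In 8975 genes (68.4%) the libraries of the hypoxic groups did not overlap, with siSF3B1_Hx above in 4769 and below in 4206. For scale, siCtrl_Hx over siCtrl_Nx gave 741 called genes (5.65%) in the same fit. At the limit of the gene filter, TCHH and MIR324 were just inside with means of 0.00039 and 0.00046 log2 CPM, and BCAN and LINC01003 just outside with -0.00025 and -0.002.

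**Figure D1:**
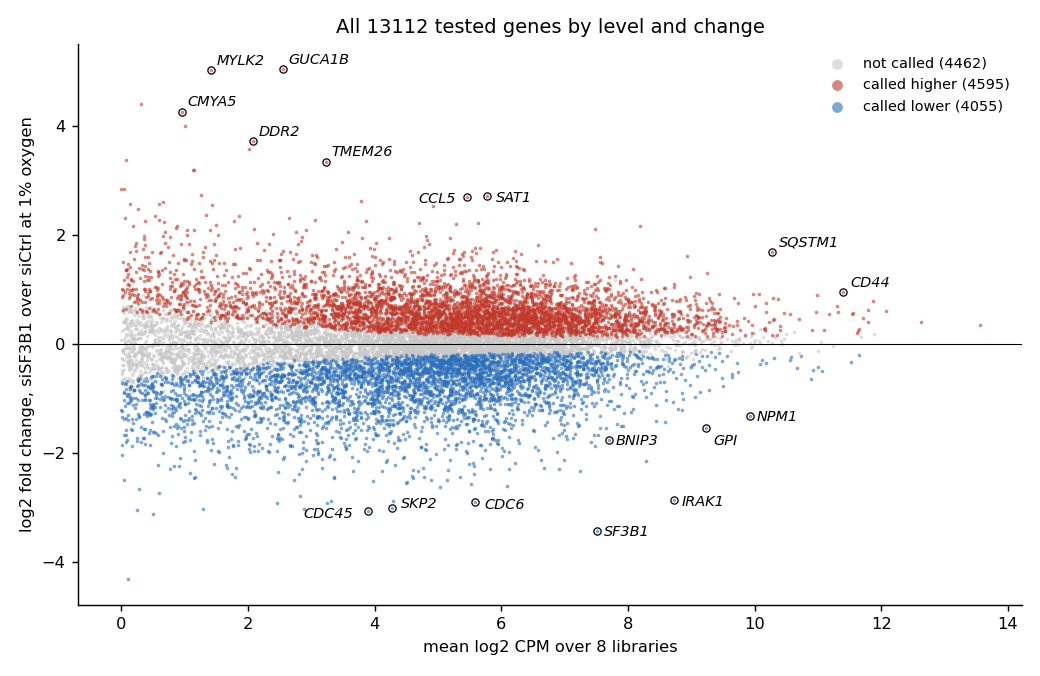
Log2 fold change of siSF3B1_Hx over siCtrl_Hx (y axis) against mean log2 CPM over 8 libraries (x axis) for the 13112 genes tested, each point a gene, red called higher (4595), blue called lower (4055), grey not called. Changes spread on both sides at every level, from -4.32 to 5.04, and SF3B1 sits at -3.42.

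Most of the 12 highest fold changes belonged to genes nearly silent in the control cells. The 12 genes named at each end were chosen to have no overlap between the hypoxic groups, so that separation was set by the rule. They also needed a mean of at least 1 log2 CPM over the 6 hypoxic libraries, siSF3B1_Hx included. A gene nearly silent in the controls could thus be named only if it rose, so this pattern is partly set by the rule. GUCA1B (chr6:42184401-42194916, minus strand), a calcium sensor for guanylate cyclase known from photoreceptors, stood at 5.49, 5.62 and 5.98 log2 CPM in siSF3B1_Hx and 0.28, 1.01 and 0.67 in siCtrl_Hx, a difference of 5.04 (SE 0.22, adjusted p = 1.22e-07). MYLK2, a myosin light chain kinase of skeletal muscle, stood at 3.95, 4.44 and 4.33 in siSF3B1_Hx and -1.53, 0.41 and -1.25 in siCtrl_Hx. Both genes were far above every control library, and library 5 carried the highest control level of each. CMYA5, a large muscle protein, rose by 4.26 (SE 0.20) and TMEM26, a membrane protein, by 3.35 (SE 0.22). DDR2 (chr1:162631373-162787400, plus strand), a receptor tyrosine kinase for collagen, stood at 4.22, 4.34 and 4.27 in siSF3B1_Hx and 0.52, 0.59 and 0.55 in siCtrl_Hx, a 13.2-fold difference with no overlap and almost no spread within either group. DGCR11, LOC729603 and the spermatid thioredoxin gene TXNDC2 also rose, by 3.59, 2.74 and 4.0. PHKG1 (3.20) and LOC100288123 (3.19) share exon sequence with SUMF2 and REXO1, so their values are uncertain. Whether such reads come from mature mRNA or from retained introns and read-through cannot be told apart in a gene-level table.

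Among the 12 highest, SAT1 and CCL5 already had reads in quantity in the control cells. SAT1 (chrX:23783173-23786226, plus strand), the rate-limiting enzyme of polyamine breakdown, stood at 7.56, 7.28 and 7.51 log2 CPM in siSF3B1_Hx and 4.85, 4.58 and 4.79 in siCtrl_Hx. The groups were far apart, and the difference was 6.55-fold (log2 2.71, SE 0.10, adjusted p = 6.11e-08). CCL5 (chr17:35871491-35880793, minus strand), a chemokine that draws T cells and monocytes, stood at 6.67, 7.55 and 7.70 in siSF3B1_Hx and 3.68, 4.66 and 5.49 in siCtrl_Hx. Libraries 2 and 3 were the lowest of their groups and 8 and 9 the highest, and the difference was 2.7 (SE 0.44).

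The lowest fold changes, after SF3B1 itself, were in cell cycle genes and in a mixed set of others. CDC45 (chr22:19479459-19520612, plus strand), a subunit of the replicative helicase, stood at 1.73, 2.16 and 1.97 log2 CPM in siSF3B1_Hx and 4.93, 4.97 and 5.15 in siCtrl_Hx, and fell by 3.06 (SE 0.12, adjusted p = 9.27e-08). SKP2, which marks the inhibitor CDKN1B for degradation, fell by 3.01 (SE 0.11), CDC6, which loads the helicase at origins, by 2.90 (SE 0.13), and SPC24, a kinetochore protein, by 2.87 (SE 0.12). IRAK1 (chrX:154010500-154019980, minus strand), a kinase that relays interleukin-1 and Toll-like receptor signals, stood at 6.97, 7.01 and 6.92 in siSF3B1_Hx and 9.67, 9.94 and 9.87 in siCtrl_Hx, a 7.28-fold difference. PHF7, ZNF587B, the peroxisomal membrane protein gene PXMP2, the Polycomb gene CBX7 and ACSS1, a mitochondrial acetyl-CoA synthetase, fell by 3.03, 2.92, 2.92, 2.89 and 2.62. RSKR fell by 2.78 and overlaps SPAG5-AS1 on the other strand.

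**Figure D2:**
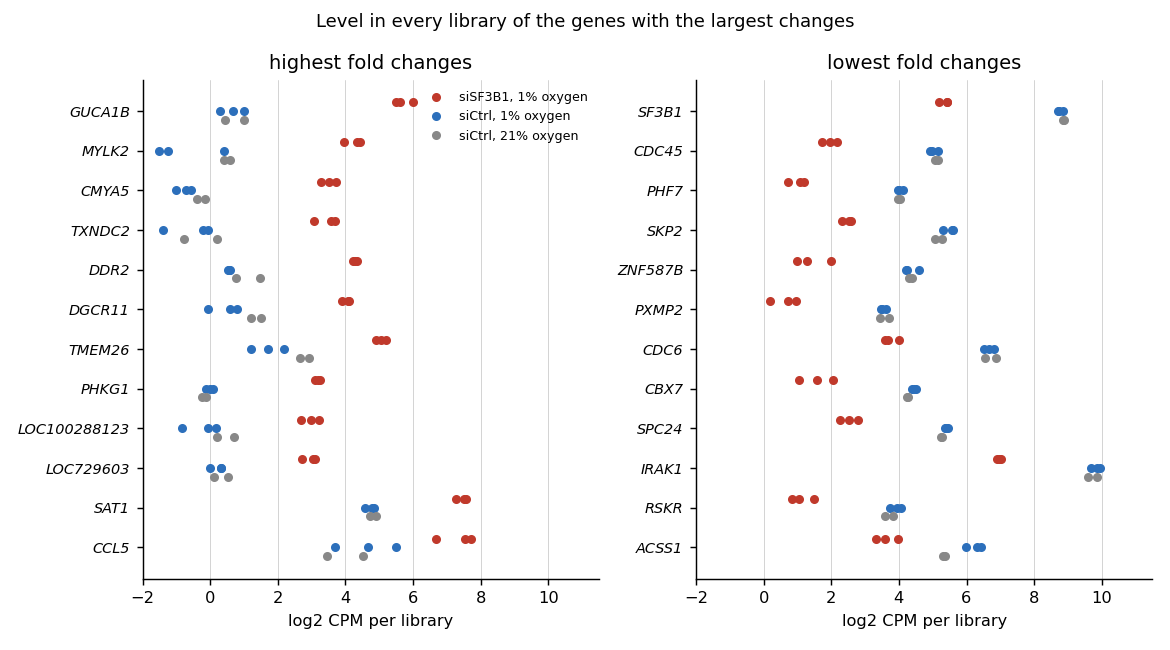
Log2 CPM in every library (x axis) of the 12 called genes with the highest (left) and the 12 with the lowest (right) log2 fold change, each point a library, red siSF3B1 at 1% oxygen, blue siCtrl at 1% oxygen, grey siCtrl at 21% oxygen. The 24 genes were chosen to have red points apart from blue ones, so that separation is not a result. GUCA1B differs by 5.04 and CDC45 by -3.06.

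By reads rather than by fold, where long and abundant genes count for more, CD44, a hyaluronan receptor, had a mean of 3951 CPM in siSF3B1_Hx and 2046 CPM in siCtrl_Hx, and SQSTM1, the autophagy receptor p62, 2495 CPM in siSF3B1_Hx and 770 CPM in siCtrl_Hx. SQSTM1 shares exon sequence with MRNIP on the other strand and is uncertain to that extent. The largest losses in reads included FLNA, an actin crosslinker, with 1467 CPM in siSF3B1_Hx and 2294 CPM in siCtrl_Hx, NPM1, a nucleolar chaperone with many gene copies, with 534 CPM in siSF3B1_Hx and 1331 CPM in siCtrl_Hx, and IRAK1 with 125 CPM in siSF3B1_Hx and 911 CPM in siCtrl_Hx. All of these passed the test in the direction given.

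Some genes under the expression filter had almost no reads in one group, and they are given as reads with no test. IFIT1B, a relative of the interferon-induced IFIT genes, had 59, 148 and 98 reads in siSF3B1_Hx and 0 in each siCtrl_Hx and siCtrl_Nx library, at least 38.0-fold higher than a floor of 3 reads per siCtrl_Hx library. ADAM32 had 42, 84 and 46 reads in siSF3B1_Hx and 3, 2 and 2 in siCtrl_Hx, HAVCR2, the T cell checkpoint receptor TIM-3, had 29, 37 and 41 in siSF3B1_Hx and 1, 1 and 2 in siCtrl_Hx, and LRIT3 had 36, 44 and 33 in siSF3B1_Hx and 3, 0 and 0 in siCtrl_Hx. In the other direction DNAI1, a dynein of cilia, had 3, 1 and 1 reads in siSF3B1_Hx and 34, 24 and 42 in siCtrl_Hx.

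The number of exons went with the direction of change. Exon number was taken as the most exons of any transcript in the GENCODE v29 basic set, which gave a value for 97.6% of the tested genes. Of 1951 genes with 20 or more exons, 22.7% rose and 46.5% fell (median -0.19). Of 4206 genes with 5 to 9 exons, 42.9% rose and 24.0% fell (median 0.16), and of 362 single-exon genes 38.7% rose and 18.2% fell (median 0.20). Genes with 2 to 4 exons (median 0.05) and 10 to 19 exons (median 0.01) lay between. The ends lay the same way among protein-coding genes alone, with 40.0% higher and 16.0% lower for 1 exon and 22.6% higher and 46.7% lower for 20 or more, and among genes between 4 and 6 log2 CPM, where 51.9% of 77 single-exon genes rose and 22.1% fell, while 19.4% of 686 genes with 20 or more exons rose and 53.2% fell. LncRNAs did not follow this order: 17.1% of 41 with 1 exon rose and 46.3% fell, as did 8.73% and 54.4% of 252 with 2 to 4 exons and 23.5% and 37.5% of 136 with 5 to 9. With plain read totals the medians were 0.07 for 1 exon and -0.32 for 20 or more, and the median of 2 to 4 exons turned to -0.08 and that of 10 to 19 exons to -0.12. Genomic length gave little order in the medians, which ran from -0.01 (100 to 200 kb) to 0.10 (under 5 kb). The share that fell climbed from 24.5% under 5 kb to 35.3% at 100 to 200 kb, and was 27.9% at 200 kb or more. The share that rose stayed between 33.5% and 36.3%. Genes share transcription units and pathways and are not independent replicates, so these shares are a description.

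Classes of RNA differed too. Of 567 long noncoding RNAs (lncRNAs), 85 rose and 263 fell (46.4%), with a median of -0.37. Of 12039 protein-coding genes 36.3% rose and 30.6% fell (median 0.05). Among the 384 lncRNAs with no exon overlap to another listed gene the median was -0.42, with 52 higher and 188 lower. Of 97 genes named LINC, 14 rose and 51 fell. Transcribed pseudogenes were split evenly, with 81 higher and 87 lower of 353. Zinc finger genes named ZNF leaned upward, with 195 higher and 123 lower of 453 and a median of 0.18. LncRNAs are mostly at low levels, and of all 2020 genes with means of 0 to 2 log2 CPM, 19.8% rose and 27.4% fell.

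**Figure D3:**
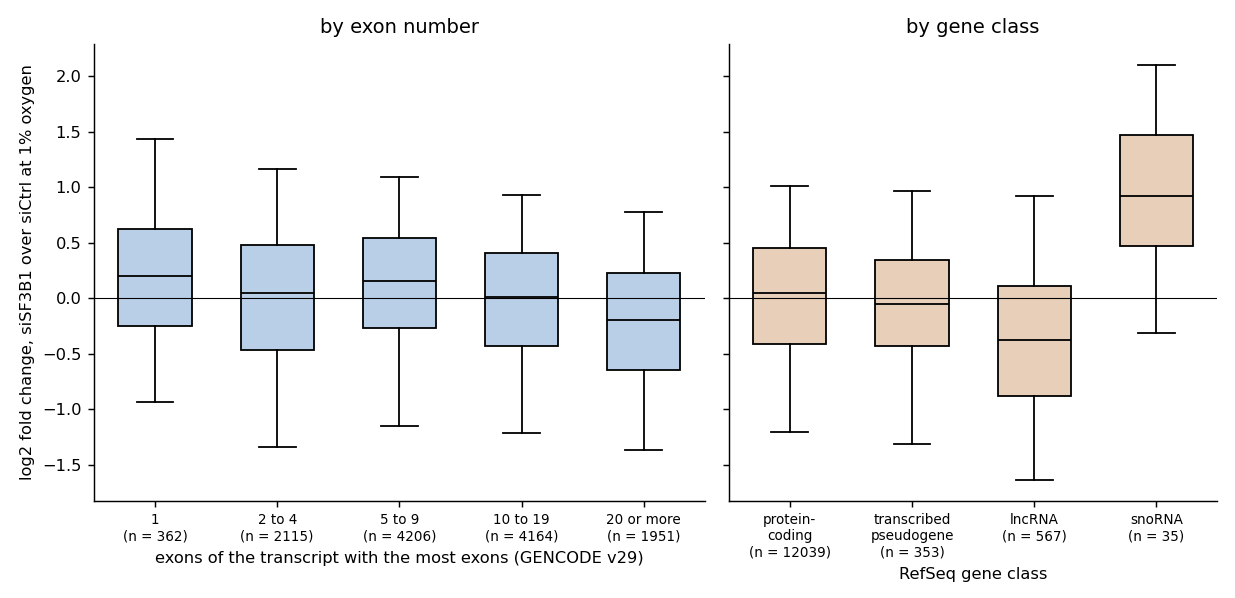
Log2 fold change of siSF3B1_Hx over siCtrl_Hx (y axis) by exon number (left) and by RefSeq gene class (right), with boxes from the first to the last quartile, the median as a line and whiskers from the 5th to the 95th percentile of genes. The median is -0.19 for 20 or more exons and 0.20 for 1 exon, -0.37 for lncRNAs and 0.92 for snoRNAs.

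Of 35 tested snoRNAs, 23 rose and 0 fell by limma, with a median log2 fold change of 0.92. At an unadjusted p under 0.05 limma gave 25 higher and 0 lower (with plain read totals, 21 and 2), and limma's voom on the recovered reads called 22 higher and 0 lower. The gene filter took the mean over all 8 libraries, siSF3B1_Hx included, so a snoRNA low in the controls could pass it through its rise. SNORD76, for example, had 42, 50 and 38 reads in siSF3B1_Hx and 9, 11 and 17 in siCtrl_Hx. With the stricter filter (mean above 1 log2 CPM) 12 snoRNAs remained, 10 higher and 0 lower. SnoRNAs are short, guide methylation and pseudouridylation of ribosomal and spliceosomal RNA, and most human ones lie inside introns of host genes. SNORA8 had 109, 110 and 96 reads in siSF3B1_Hx and 38, 44 and 41 in siCtrl_Hx, and SNORD5 had 83, 105 and 81 in siSF3B1_Hx and 32, 25 and 23 in siCtrl_Hx. Neither overlapped between the groups (log2 differences 1.48, SE 0.15, adjusted p = 1.66e-05, and 1.85, SE 0.19, adjusted p = 1.77e-05). Both sit in TAF1D, which rose by 1.04. Sequences are shown, as GENCODE v29 gives them on GRCh38, for SNORA8 and SNORD5, which are neighbours in this host and belong to different classes, with capitals for the ACA box near the 3′ end that defines the H/ACA class, and for the C and D boxes of the C/D class.
SNORA8, chr11:93732361-93732499, minus strand: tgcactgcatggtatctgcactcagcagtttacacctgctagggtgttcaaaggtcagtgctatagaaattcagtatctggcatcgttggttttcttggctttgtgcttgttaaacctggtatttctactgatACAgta
SNORD5, chr11:93733228-93733300, minus strand: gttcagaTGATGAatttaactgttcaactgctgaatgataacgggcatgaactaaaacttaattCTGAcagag
In SNORA8 the ACA box begins 6 bases from the 3′ end, and in SNORD5 the D box begins 9 bases from it.

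The snoRNAs did not simply follow their hosts. As host was taken the tested gene whose RefSeq span holds the snoRNA, and the most abundant where several spans do. Such a gene need not be the true host. A host was found in this way for 31 snoRNAs in 17 genes. Of these, 10 hosts rose, 3 fell and 4 did not pass, and the median host change was 0.16. In 21 of the 31 the snoRNA's log2 fold change was above that of its host. SNORD23 had 142, 86 and 137 reads in siSF3B1_Hx and 28, 28 and 33 in siCtrl_Hx (2.10, SE 0.23), while its host NOP53, a ribosome assembly factor, fell by 0.42. SNORD17 had 75, 95 and 85 reads in siSF3B1_Hx and 40, 43 and 36 in siCtrl_Hx, while its host SNX5 fell by 0.27. SNORA73B rose by 1.11 (SE 0.32) within the span of RCC1, which fell by 0.94, but it has a close copy, SNORA73A, in the same span. Whether introns of RCC1 or of another gene in this span hold the pair was not checked, so it is uncertain here. GAS5, a host that codes for no protein, rose by 1.30, and its snoRNAs varied: SNORD76 rose by 1.85 (SE 0.24), SNORD80 and SNORD44 by 0.56 (SE 0.18) and 0.58 (SE 0.23), and SNORD47 did not pass (-0.41, SE 0.23). As snoRNAs lie within their hosts, reads of the snoRNA and of unspliced host RNA cannot be told apart.

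**Figure D4:**
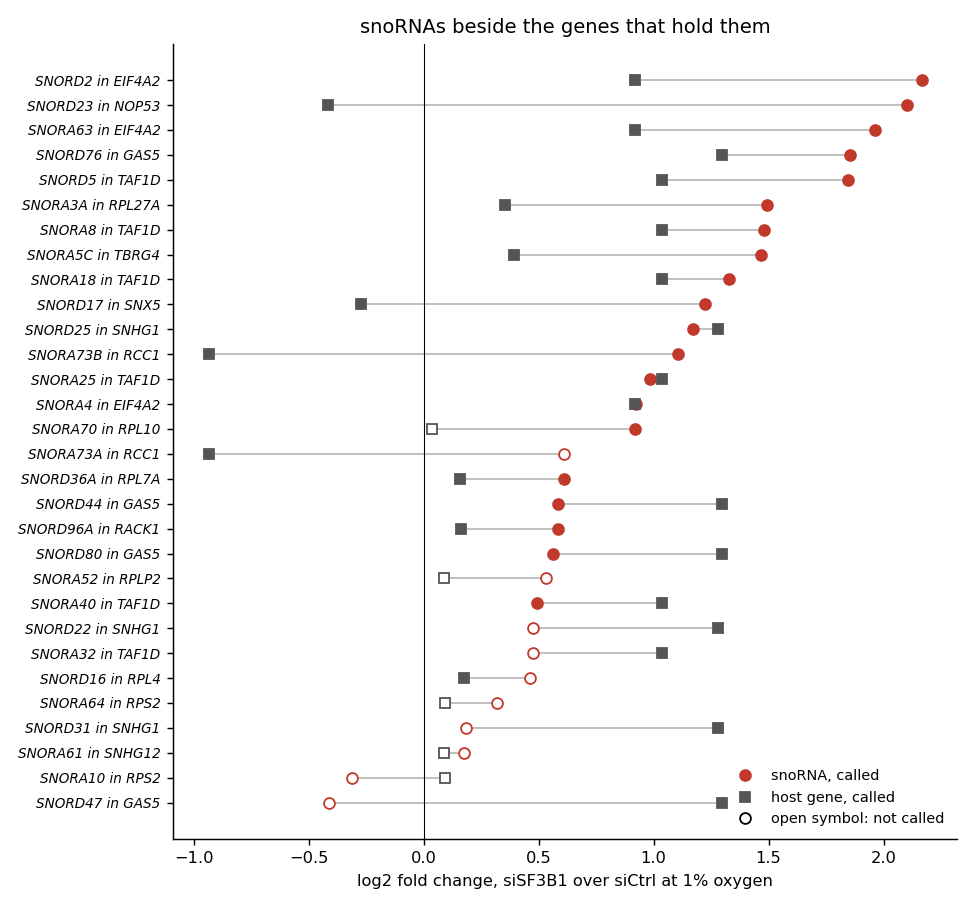
Log2 fold change of siSF3B1_Hx over siCtrl_Hx (x axis) of 30 of the 31 snoRNAs (red circles) and of the gene taken as host of each (grey squares), with open symbols for those not called. The circle lies to the right of the square in 20 pairs, and SNORD23 at 2.10 is above its host NOP53 at -0.42.

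Gene lists were then read against the shares of all genes, 35.0% higher and 30.9% lower with a median of 0.03. These shares differed by level. At means of 0 to 2 log2 CPM 19.8% rose and 27.4% fell (median -0.10). At 8 log2 CPM or more 52.8% rose and 19.2% fell (median 0.23). Lists were not matched for level, and the part of level in their counts was not tested. By these counts, DNA replication and repair, the kinetochore and genes activated by HIF were mostly lower, while the lysosome, interferon-induced, TGF-beta and immediate early genes were mostly higher.

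**Figure D5:**
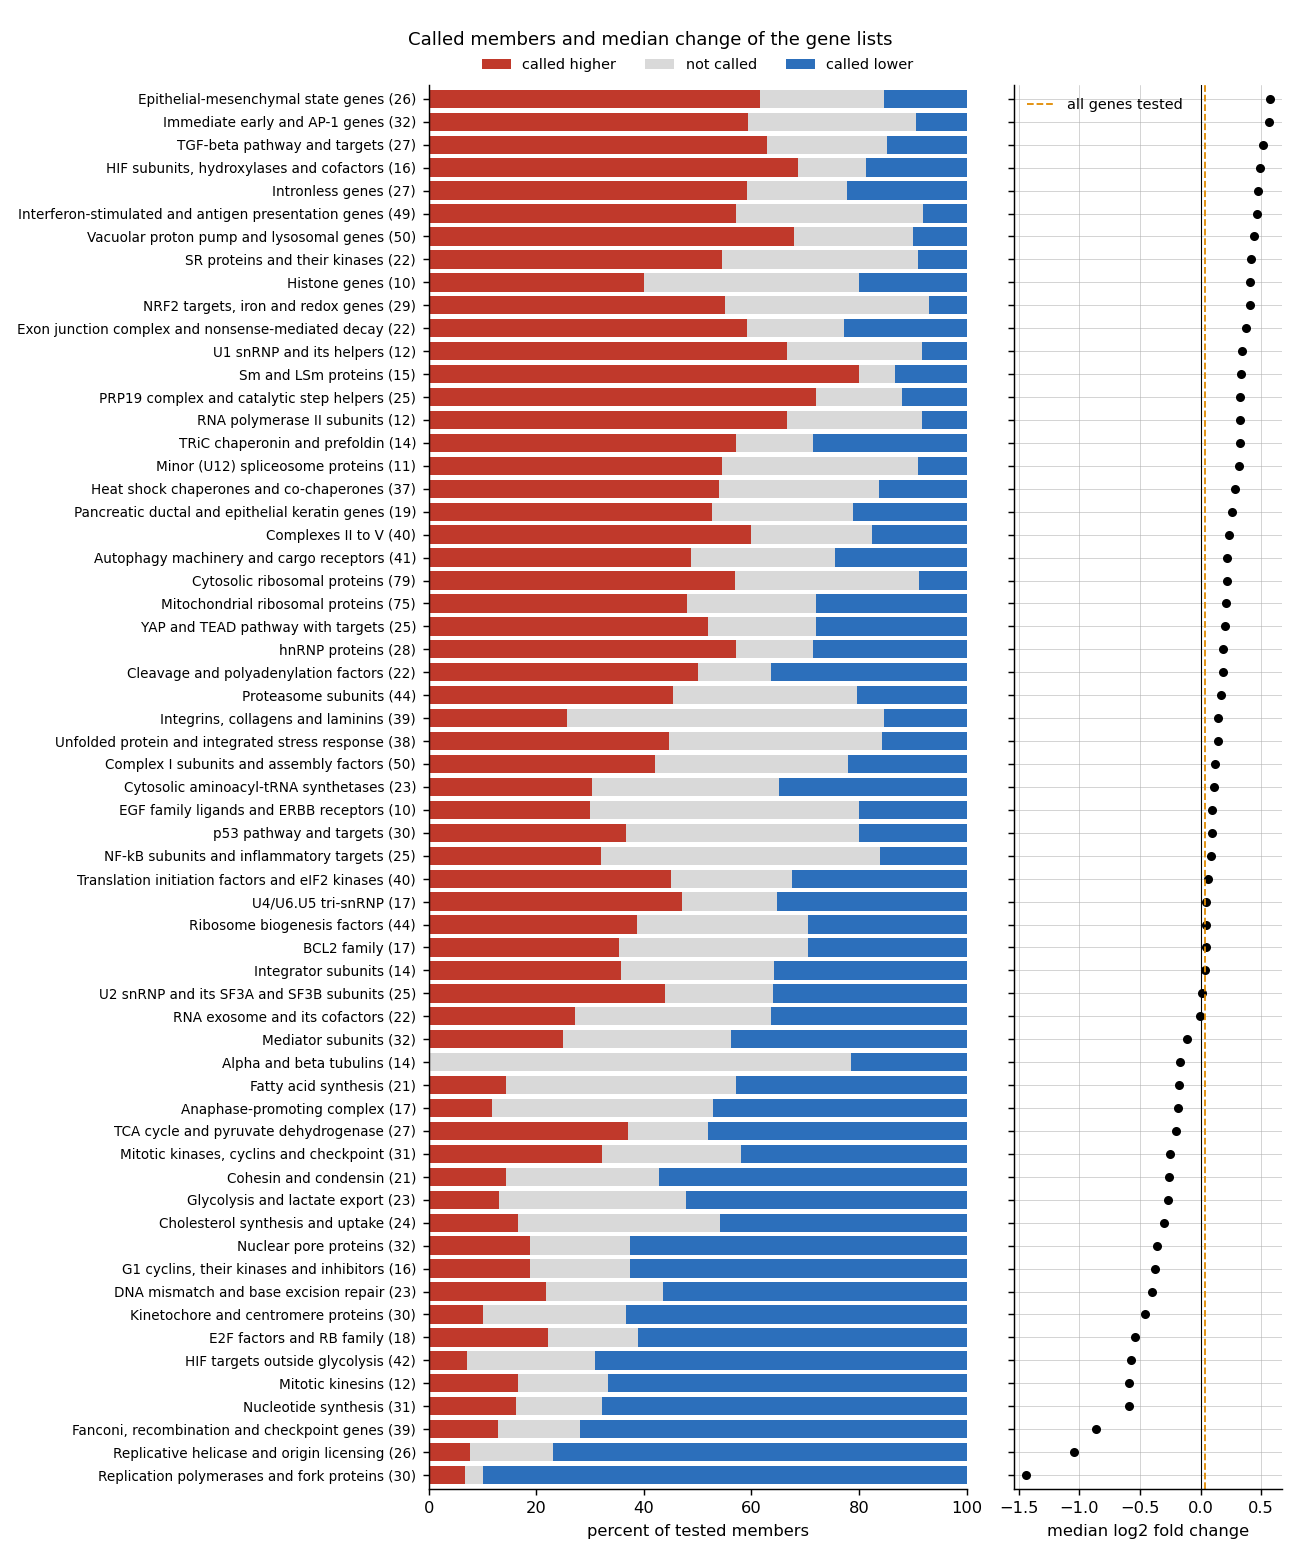
Left, percent of the tested members of each gene list (number in brackets) that were called higher (red), not called (grey) or called lower (blue) in siSF3B1_Hx over siCtrl_Hx. Right, the list's median log2 fold change (x axis), with a dashed line at the 0.03 of all genes tested. Replication polymerases and fork proteins have the lowest median, -1.44, and epithelial-mesenchymal state genes stand at 0.57.

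Within the spliceosome, the U2 snRNP that holds SF3B1 was split. All 25 listed members were tested, and 11 rose and 9 fell, at a median of 0.01 (-0.12 with plain read totals, -0.07 with quantile normalization and -0.03 with voom). With plain read totals 10 rose and 10 fell. SF3B4, a direct partner of SF3B1, stood at 8.04, 8.02 and 8.15 log2 CPM in siSF3B1_Hx and 7.03, 7.11 and 6.96 in siCtrl_Hx, and SF3B6, which contacts the branch point, at 6.73, 6.85 and 6.89 in siSF3B1_Hx and 6.05, 6.12 and 6.07 in siCtrl_Hx. Both were above every control library (1.04, SE 0.062, and 0.74, SE 0.063). SNRPB2 and SNRPA1 encode the proteins B″ and A′ that bind the U2 RNA as a pair, and they moved apart, SNRPB2 by 1.05 and SNRPA1 by -1.19. The helicase DDX46, which remodels U2, rose by 0.84 (SE 0.061), and U2SURP and SF3A3, which also join U2, fell by 1.15 (SE 0.11) and 0.57 (SE 0.073).

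The other spliceosome groups had more higher than lower calls, except that the tri-snRNP turned with plain read totals. Of 15 Sm and LSm proteins, the rings around the spliceosomal RNAs, 12 rose (7 with plain read totals) and 2 fell (1 with median centring, without a filter, in the hypoxic libraries alone or without library 6, 2, 5, 8, 1 or 4), median 0.33, and all fold changes were under 1, SNRPD1 (0.63, SE 0.069) and SNRPD2 (0.63, SE 0.062) among the higher ones and LSM7 (-0.54, SE 0.094) among the lower. Of 25 members of the PRP19 complex and helpers of the catalytic steps, 18 rose and 3 fell (5 with plain read totals), median 0.33. SYF2 rose by 1.07, ISY1 by 0.85 and RBM22 by 0.76. U1 snRNP proteins and their helpers gave 8 higher (5 with plain read totals) and 1 lower (2 with plain read totals) of 12, with RBM25 at 0.85 (SE 0.067), LUC7L3 at 0.52 (SE 0.057) and TIA1, which fell, at -0.75 (SE 0.063). In the U4/U6.U5 tri-snRNP 8 rose and 6 fell of 17 (median 0.04, -0.09 with plain read totals, which gave 6 higher and 7 lower, and -0.03 with quantile normalization): PRPF8, the core of the catalytic centre, rose by 0.50 (SE 0.066) and its GTPase partner EFTUD2 fell by 0.61 (SE 0.061), while SNRNP27 fell by 1.46 (SE 0.11). Of 11 tested proteins of the minor spliceosome, 6 rose and 1 fell, with RNPC3 at 0.80 (SE 0.12) and SNRNP48 at -0.42 (SE 0.10).

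SR proteins, which bind exonic enhancers, gave 12 higher and 2 lower of 22 tested with their kinases (median 0.42; 1 lower without library 3, 9 or 5). SRRM1 rose by 1.03 (SE 0.071), SRSF3 by 0.72 (SE 0.096) and SRSF11 by 0.60 (SE 0.060), and SRSF5 fell by 0.41 (SE 0.060). The hnRNP proteins, often antagonists of SR proteins, gave 16 higher (10 with quantile normalization) and 8 lower of 28. The polypyrimidine tract binding paralogs moved in opposite directions: PTBP3 stood at 5.92, 5.99 and 5.92 log2 CPM in siSF3B1_Hx and 7.59, 7.53 and 7.58 in siCtrl_Hx and fell by 1.63, while PTBP2 rose by 1.04 (SE 0.094). HNRNPLL rose by 1.35 (SE 0.086).

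Nonsense-mediated decay removes mRNAs with premature stop codons. Of 22 members of this pathway and the exon junction complex, 13 rose and 5 fell, at a median of 0.37. EIF4A3, the exon junction helicase, stood at 8.26, 8.16 and 8.38 log2 CPM in siSF3B1_Hx and 7.25, 7.27 and 7.34 in siCtrl_Hx. Its groups did not overlap, and it rose by 0.98 (SE 0.067). The central helicase UPF1 fell by 0.61 (SE 0.058), UPF3B by 1.03 (SE 0.087) and NBAS by 1.37 (SE 0.070). Counts of the RNA exosome and its cofactors, 6 higher and 8 lower of 22, and of cleavage and polyadenylation factors, 11 and 8 of 22, were mixed. NUDT21, a subunit of cleavage factor I, rose by 1.13 (SE 0.062) and CSTF2, the cleavage stimulation factor that binds downstream, fell by 1.24 (SE 0.096). RNA polymerase II had 8 subunits higher and 1 of 12 lower (2 with plain read totals), and the 1 was POLR2A, the catalytic subunit, at 8.37, 8.43 and 8.45 in siSF3B1_Hx and 8.93, 9.01 and 9.17 in siCtrl_Hx. The Mediator list had 8 higher and 14 lower of 32, from MED11 at -1.21 to MED10 at 1.56.

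DNA replication genes were among the lists with the lowest medians. Of 30 polymerase and fork proteins 27 fell (90%) and 2 rose (1 with plain read totals, quantile normalization or voom, without a filter, in the hypoxic libraries alone or without library 3, 9, 2, 5, 8, 1 or 4), median -1.44, and of 26 helicase and licensing genes 20 fell (76.9%) and 2 rose (1 with plain read totals, quantile normalization or voom, or without library 6 or 2), median -1.05. POLA1, the catalytic subunit of the primase polymerase, stood at 2.17, 2.65 and 2.27 log2 CPM in siSF3B1_Hx, 4.89, 4.92 and 4.79 in siCtrl_Hx and 5.08 and 5.06 in siCtrl_Nx, and fell by 2.50 (SE 0.12, adjusted p = 2.16e-07). CLSPN, which couples the fork to checkpoint signalling, stood at 4.04, 4.67 and 4.51 in siSF3B1_Hx and 6.85, 7.12 and 7.04 in siCtrl_Hx. In both genes every knockdown library was at least 2 log2 units below the lowest control library. DNA2, a nuclease of Okazaki fragments, fell by 2.30, WDHD1, which tethers the primase polymerase, by 2.27 and POLE3, an accessory subunit of polymerase epsilon, by 2.17. The helicase subunit MCM4 fell by 1.67 (SE 0.098) and MCM10 by 1.52 (SE 0.14). Among the genes that rose was RPA2, a subunit of the single-strand binding protein, by 0.54 (SE 0.081).

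Genes that supply nucleotides and control entry into S phase fell with them. Of 31 nucleotide synthesis genes 21 fell and 5 rose (3 with plain read totals); the median was -0.59. For example, thymidine kinase TK1 stood at 6.03, 5.79 and 5.77 log2 CPM in siSF3B1_Hx and 7.03, 7.15 and 7.05 in siCtrl_Hx and fell by 1.22 (SE 0.077), and PRPS2 fell by 1.30 (SE 0.11) while its paralog PRPS1 rose by 0.49 (SE 0.057). E2F factors drive S phase genes and RB proteins restrain them. Both sides fell: E2F1 stood at 4.49, 4.32 and 4.29 in siSF3B1_Hx and 6.54, 6.67 and 6.74 in siCtrl_Hx (-2.28, SE 0.083), RBL1, also called p107, fell by 2.22 (SE 0.12) and RB1 by 1.40 (SE 0.11), while E2F3 rose by 0.37 (SE 0.082). In all, 11 of 18 in this family fell and 4 rose (2 with plain read totals or voom, or without library 3, 9 or 2). CDK6, a G1 kinase, stood at 5.87, 5.74 and 5.70 in siSF3B1_Hx and 8.16, 8.11 and 8.02 in siCtrl_Hx, a 5.02-fold lower level. CDKN1B, the inhibitor p27, rose by 0.56 (SE 0.068), and the G1 list as a whole had 10 lower and 3 higher of 16.

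Promoters of these genes were searched for E2F sites, written TTTCCCGC, TTTGGCGC or TTTCGCGC on either strand, in the 250 bases before and 50 after each RefSeq start. The letters were found in 4.69% of the promoters of all tested genes, in 9 of 26 (34.6%) for polymerase and fork proteins, in 11 of 22 for helicase and licensing genes, in 6 of 16 (37.5%) for the E2F and RB family and in 3 of 27 (11.1%) for nucleotide synthesis. Among all called genes they were in 6.02% of those that fell and 4.16% of those that rose. The 250 bases before the start (RefSeq, GRCh38.p14) are shown for POLA1 and E2F1 because both fell over 4-fold, with the match in capitals.
POLA1, chrX:24693668-24693917, plus strand: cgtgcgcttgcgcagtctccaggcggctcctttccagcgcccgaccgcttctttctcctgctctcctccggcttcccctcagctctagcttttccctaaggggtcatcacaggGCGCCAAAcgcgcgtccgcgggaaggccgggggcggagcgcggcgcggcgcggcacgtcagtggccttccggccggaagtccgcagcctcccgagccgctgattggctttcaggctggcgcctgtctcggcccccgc
E2F1, chr20:33686386-33686635, minus strand: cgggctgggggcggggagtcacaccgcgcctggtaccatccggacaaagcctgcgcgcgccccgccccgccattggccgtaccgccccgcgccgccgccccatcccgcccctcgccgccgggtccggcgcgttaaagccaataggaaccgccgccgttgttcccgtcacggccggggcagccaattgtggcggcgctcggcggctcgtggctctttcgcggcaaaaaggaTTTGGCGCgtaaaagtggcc
The match begins 137 bases before the start in POLA1 and 20 bases before it in E2F1. A match is a description of these letters and not a measured site.

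DNA repair genes fell broadly. Of 39 Fanconi, recombination and checkpoint genes 28 fell (71.8%) and 5 rose, with a median of -0.86. FANCD2, the protein monoubiquitinated at crosslinks, stood at 2.84, 3.20 and 3.17 log2 CPM in siSF3B1_Hx and 5.40, 5.55 and 5.55 in siCtrl_Hx and fell by 2.43 (SE 0.12), BRCA1 fell by 1.81 (SE 0.11) and RBBP8, which starts end resection, by 1.96 (SE 0.072). Against this, HUS1, part of the checkpoint clamp, stood at 6.82, 6.98 and 6.98 in siSF3B1_Hx and 5.25, 5.31 and 5.13 in siCtrl_Hx and rose by 1.70 (SE 0.074), and FANCF rose by 0.86 (SE 0.12). Mismatch and base excision repair had 13 lower and 5 higher of 23, with XRCC1, a scaffold of single-strand break repair, at -1.67 (SE 0.087) and the mismatch protein PMS2 at 0.55 (SE 0.060).

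Mitotic genes were divided. Of 30 kinetochore and centromere genes 19 fell and 3 rose (1 with plain read totals), and of 12 mitotic kinesins 8 fell and 2 rose (1 with plain read totals, with quantile normalization and without library 6, 9 or 8). SPC25, which joins SPC24 at the kinetochore, fell by 1.64 (SE 0.20) and KIF14 by 2.21 (SE 0.16), while CENPC, which binds the centromeric nucleosome, rose by 0.54 (SE 0.097). Kinases, cyclins and checkpoint genes of mitosis went both ways, 10 higher and 13 lower of 31. CDK1 stood at 5.55, 6.11 and 5.93 log2 CPM in siSF3B1_Hx and 7.05, 7.03 and 6.78 in siCtrl_Hx and fell by 1.09 (SE 0.13). Its partner CCNB1, cyclin B1, stood at 7.80, 8.30 and 7.91 in siSF3B1_Hx and 7.52, 7.56 and 7.0 in siCtrl_Hx and rose by 0.65 (SE 0.16). Neither gene's groups overlapped. WEE1, which inhibits CDK1, rose by 0.46, CDC25B, which activates it, by 0.63, and AURKA fell by 0.97.

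The separase ESPL1, which cuts cohesin at anaphase, fell by 1.29 (SE 0.13), with 5.04, 5.62 and 5.37 log2 CPM in siSF3B1_Hx and 6.55, 6.76 and 6.58 in siCtrl_Hx. Its promoter is shown for the letters TTTGAA, the core of the cell cycle homology region known from genes of late cell cycle phases. They occurred on either strand in 9.34% of the promoters of all tested genes, in 14 of 23 (60.9%) for mitotic kinases, cyclins and checkpoint genes, 9 of 12 (75.0%) for mitotic kinesins and 11 of 26 (42.3%) for kinetochore genes. The share was 9.87% among genes that rose and 9.5% among genes that fell.
ESPL1, chr12:53268049-53268298, plus strand: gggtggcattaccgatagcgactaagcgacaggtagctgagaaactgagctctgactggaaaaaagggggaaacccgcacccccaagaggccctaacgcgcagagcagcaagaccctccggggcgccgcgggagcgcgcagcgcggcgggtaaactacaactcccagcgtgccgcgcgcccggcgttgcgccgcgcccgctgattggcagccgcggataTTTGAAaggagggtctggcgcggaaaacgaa
The capitals lie 31 bases before the start.

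Lower calls outnumbered higher ones in large complexes of chromosomes and the nuclear envelope. Cohesin and condensin had 12 lower and 3 higher of 21: the acetyltransferase ESCO2 fell by 2.01 (SE 0.22) and the condensin subunit NCAPD3 by 1.39 (SE 0.094), while STAG2, a cohesin subunit, rose by 0.41 (SE 0.055). Of 32 nuclear pore genes 20 fell and 6 rose, with NUP160 of the outer ring at -1.49 (SE 0.080), NUP155 of the inner ring at -1.10 (SE 0.10) and the export factor RAE1 at 1.18 (SE 0.071). The anaphase-promoting complex had 8 lower of 17, among them CDC16 (-1.36, SE 0.079) and ANAPC5 (-1.15, SE 0.075).

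Genes of the response to low oxygen bear on the study's title, which names HIF1A and glycolysis. The comparisons of siSF3B1_Hx with siCtrl_Hx and of siCtrl_Hx with siCtrl_Nx share the siCtrl_Hx libraries, so their values are given side by side and not correlated. The subunits themselves split: HIF1A stood at 6.09, 6.39 and 5.97 log2 CPM in siSF3B1_Hx, 5.38, 5.49 and 4.90 in siCtrl_Hx and 6.91 and 6.89 in siCtrl_Nx, so the siSF3B1_Hx libraries lay between the other groups with no overlap. ARNT stood at 4.84, 4.99 and 4.86 in siSF3B1_Hx, 5.80, 5.78 and 5.87 in siCtrl_Hx and 5.87 and 5.76 in siCtrl_Nx, so its siSF3B1_Hx libraries lay below both other groups. Of 16 subunits, hydroxylases and cofactors 11 rose and 3 fell, with CUL2 and RBX1, which form the ligase with VHL, higher by 0.63 and 0.67, CITED2, which competes with HIF for its coactivators, higher by 0.66, and the hydroxylase EGLN3 lower (log2 fold change -1.03, SE 0.14).

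HIF target genes were mostly lower with SF3B1 siRNA. Of 42 tested targets outside glycolysis 29 fell (69%) and 3 rose (1 with plain read totals and 6 with the library sets as a block), with a median of -0.57. ZNF395 stood at 3.35, 2.93 and 3.23 log2 CPM in siSF3B1_Hx, 4.80, 4.89 and 5.06 in siCtrl_Hx and 2.54 and 2.77 in siCtrl_Nx. HILPDA, which slows lipid droplet breakdown, stood at 5.62, 5.18 and 5.74 in siSF3B1_Hx, 7.07, 6.70 and 7.73 in siCtrl_Hx and 4.55 and 4.34 in siCtrl_Nx. IGFBP3, a carrier of insulin-like growth factors, stood at 2.57, 2.56 and 2.91 in siSF3B1_Hx, 3.86, 3.97 and 5.04 in siCtrl_Hx and 0.80 and 0.99 in siCtrl_Nx. In each of these genes the siSF3B1_Hx libraries lay below all siCtrl_Hx and above all siCtrl_Nx libraries, with differences from siCtrl_Hx of -1.74 (SE 0.13), of -1.65 (SE 0.23) and of -1.61 (SE 0.27), and siCtrl_Hx over siCtrl_Nx gave 2.26, 2.72 and 3.40. The mitophagy receptor BNIP3 showed the same order, at 7.36, 7.19 and 7.18 in siSF3B1_Hx, 9.03, 8.91 and 9.06 in siCtrl_Hx and 6.36 and 6.48 in siCtrl_Nx.

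The glycolysis list moved less. Glycolysis enzymes and lactate exporters numbered 23 tested, and 12 of them fell and 3 rose (1 under plain read totals or quantile normalization). Their median was -0.27. GPI, the isomerase of the second step, stood at 8.84, 8.54 and 8.49 log2 CPM in siSF3B1_Hx, 10.21, 9.92 and 10.38 in siCtrl_Hx and 8.70 and 8.81 in siCtrl_Nx, so the ranges of the knockdown and normoxic libraries overlapped. PDK1, which keeps pyruvate out of mitochondria, stood at 5.12, 5.05 and 5.21 in siSF3B1_Hx, 6.21, 6.13 and 6.38 in siCtrl_Hx and 3.35 and 3.48 in siCtrl_Nx, and the neuronal enolase ENO2 fell by 1.26 (SE 0.14). Lactate dehydrogenase LDHA stood at 11.46, 11.16 and 11.17 in siSF3B1_Hx and 11.56, 11.22 and 11.39 in siCtrl_Hx, its groups overlapped and the difference did not pass (95% CI -0.35 to 0.11), though it did with quantile normalization, at -0.32. The lactate transporter SLC16A1 rose by 0.62 (SE 0.073). The core letters of a hypoxia response element, ACGTG or GCGTG, on either strand, were in 28 of 33 promoters of the HIF targets (84.8%), in 15 of 22 of the glycolysis genes (68.2%) and in 64.2% of all.

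Mitochondrial genes divided by complex. Of 40 genes of complexes II to V 24 rose (13 with plain read totals) and 7 fell, and the widest change was a fall: UQCRC2, a core subunit of complex III, stood at 5.46, 5.34 and 5.13 log2 CPM in siSF3B1_Hx and 7.42, 7.43 and 7.43 in siCtrl_Hx, a 4.34-fold lower level with almost no spread in the controls. Complex I had 21 higher (13 with plain read totals) and 11 lower (19 with plain read totals and 17 with voom) of 50, and its median of 0.12 turned to -0.01 with plain read totals. In the citric acid cycle list 13 fell and 10 rose (6 with plain read totals) of 27: OGDH, of the 2-oxoglutarate dehydrogenase complex, fell by 1.38 (SE 0.074) and its partner DLST by 0.84 (SE 0.068), and MDH2, malate dehydrogenase, rose by 0.60 (SE 0.063). Cholesterol genes gave 11 lower and 4 higher of 24, with lanosterol synthase LSS at -1.59 (SE 0.18) and HMGCS1, an early enzyme of the pathway, at 0.77 (SE 0.13). Fatty acid genes gave 9 lower and 3 higher (5 with quantile normalization and 5 with the library sets as a block) of 21, with ACACB at -1.08 (SE 0.15) and ELOVL6 at 1.33 (SE 0.21).

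Lysosomal genes rose together. Of 50 genes of the vacuolar proton pump and the lysosome 34 rose (68%) and 5 fell (3 without library 9 or 8), with a median of 0.45. ATP6V1A, the catalytic subunit of the pump, stood at 7.48, 7.51 and 7.31 log2 CPM in siSF3B1_Hx and 5.98, 5.86 and 5.90 in siCtrl_Hx and rose by 1.52 (SE 0.072, adjusted p = 1.68e-07). ATP6V1E1, part of its stalk, rose by 1.11 (SE 0.061), LAMP2, a membrane glycoprotein, by 1.04 (SE 0.062) and the lipase LIPA by 0.82 (SE 0.18), while CLN3, a lysosomal membrane protein, fell by 0.70 (SE 0.069). ATP6V0D1, of the pump's membrane sector, stood at 6.41, 6.46 and 6.45 in siSF3B1_Hx and 5.52, 5.63 and 5.53 in siCtrl_Hx, with no overlap. Its promoter holds the palindrome CACGTG, an E-box that TFEB, MYC and other factors can bind. The palindrome was in 11 of 36 promoters of this list (30.6%) and in 10.3% of all (it contains ACGTG, the hypoxia core), and in 9.76% of genes that rose and 10.2% of genes that fell.
ATP6V0D1, chr16:67481158-67481407, minus strand: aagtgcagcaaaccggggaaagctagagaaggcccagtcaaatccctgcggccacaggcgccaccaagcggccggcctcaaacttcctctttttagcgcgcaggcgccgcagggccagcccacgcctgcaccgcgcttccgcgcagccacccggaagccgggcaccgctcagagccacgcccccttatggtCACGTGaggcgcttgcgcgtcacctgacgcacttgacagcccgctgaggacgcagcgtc
The capitals lie 59 bases before the start, and CD68, given above as a blood marker, is also a lysosomal gene.

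Protein quality control lists had more higher than lower calls, while autophagy depended on the scaling. Of 41 autophagy genes 20 rose and 10 fell, and with plain read totals 15 rose and 15 fell. WIPI2, which marks the forming membrane, rose by 0.75 (SE 0.064) and GABARAPL1, of the ATG8 family, by 0.71 (SE 0.14), while the cargo receptors CALCOCO1 and OPTN fell by 1.41 (SE 0.15) and 0.76 (SE 0.12). Heat shock chaperones and co-chaperones gave 20 higher and 6 lower of 37, with HSPH1, of the HSP110 family, at 8.93, 8.93 and 8.71 log2 CPM in siSF3B1_Hx and 8.07, 8.13 and 7.51 in siCtrl_Hx, BAG3 higher by 0.89 and the mitochondrial chaperone HSPA9 lower, with a log2 fold change of -0.58. HSPA1A and HSPA1B, near-identical copies whose reads could be split between them, rose by 1.18 and 1.25. Proteasome genes gave 20 higher and 9 lower of 44, led by PSMD7 (1.07, SE 0.067) and PSMD10 (0.98, SE 0.074). In the unfolded protein and integrated stress response 17 rose and 6 fell of 38: NUPR1, a stress-induced chromatin protein, stood at 5.31, 5.28 and 6.08 in siSF3B1_Hx and 3.23, 3.56 and 4.04 in siCtrl_Hx, the sensor ERN1 rose by 1.16 and the chaperone HSP90B1 by 0.85, while HYOU1, a chaperone induced by low oxygen, fell by 1.03 (SE 0.080).

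Interferon-induced genes were higher. Of 49 tested genes of this response and of antigen presentation 28 rose (57.1%) and 4 fell (8 with plain read totals and 7 with the library sets as a block), with a median of 0.46. IFIT2, which binds viral RNA, stood at 7.23, 8.44 and 7.43 log2 CPM in siSF3B1_Hx and 4.87, 5.34 and 4.92 in siCtrl_Hx and rose by 2.66 (SE 0.27, adjusted p = 1.35e-05). IFIT1 stood at 6.55, 7.57 and 6.71 in siSF3B1_Hx and 5.08, 5.47 and 5.11 in siCtrl_Hx and IFIT3 at 5.72, 6.81 and 6.19 in siSF3B1_Hx and 4.22, 4.71 and 4.76 in siCtrl_Hx. All 3 genes were highest in library 6 of siSF3B1_Hx, and their groups did not overlap. OASL, an antiviral protein, rose by 2.27 (SE 0.15) and IFI44 by 1.70 (SE 0.35), while TRIM14 fell by 1.06 (SE 0.13) and the restriction factor MX2 by 0.40 (SE 0.096). The letters of an interferon stimulated response element, GAAA followed after 2 bases of any kind by GAAA again, on either strand, were in 24 of 37 promoters of the list (64.9%), in 2.71% of all, in 3.08% of genes that rose and in 2.20% of genes that fell. IFIT1 is shown for its adjoining pair of matches.
IFIT1, chr10:89392373-89392622, plus strand: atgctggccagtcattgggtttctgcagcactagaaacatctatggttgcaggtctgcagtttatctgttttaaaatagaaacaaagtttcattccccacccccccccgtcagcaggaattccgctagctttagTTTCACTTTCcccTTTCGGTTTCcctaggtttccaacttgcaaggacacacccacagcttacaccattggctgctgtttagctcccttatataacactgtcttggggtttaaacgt
The matches begin 116 and 103 bases before the start. Of the blood markers given above, CD14 and CD68 were also higher in siSF3B1_Hx, CD68 not under every alternative, and HBA1 overlapped between the groups. The part of these markers in this result was not tested.

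NF-kB genes, which share inducers with interferon genes, moved less: 8 rose and 4 fell (2 without library 9 or 5) of 25, a share of higher calls near that of all genes. The inhibitor NFKBIA rose by 0.83 (SE 0.19) and the cytokine LIF by 0.90 (SE 0.073), while TRAF1 fell by 1.62 (SE 0.38).

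Of 32 tested immediate early and AP-1 genes, which answer growth signals rapidly, 19 rose and 3 fell, at a median of 0.56. SPRY2, a feedback inhibitor of the MAP kinase pathway, stood at 4.69, 4.90 and 4.84 log2 CPM in siSF3B1_Hx and 3.55, 3.5 and 3.59 in siCtrl_Hx, with no overlap. FOSB rose by 1.24 (SE 0.26), the phosphatase DUSP5 by 1.19 (SE 0.19), and IER5 fell by 0.80 (SE 0.12). TGF-beta pathway genes and targets gave 17 higher and 4 lower (2 without library 9 or 2) of 27, with a median of 0.52. The target CCN2, a matricellular protein, stood at 7.72, 7.90 and 7.27 in siSF3B1_Hx and 6.29, 6.26 and 5.78 in siCtrl_Hx, the coreceptor TGFBR3 rose by 1.45 (SE 0.11), the inhibitor of DNA binding ID3 by 1.37 (SE 0.16) and the corepressor SKIL by 1.15 (SE 0.21). The ligand TGFB3 fell by 1.12 (SE 0.22).

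Redox genes of the NRF2 pathway gave 16 higher and 2 lower (4 with plain read totals) of 29, with a median of 0.41. HMOX1, the heme oxygenase, stood at 9.39, 9.75 and 9.93 log2 CPM in siSF3B1_Hx, 7.48, 7.46 and 7.65 in siCtrl_Hx and 6.73 and 7.16 in siCtrl_Nx and rose by 2.16 (SE 0.14, adjusted p = 9.35e-07). The glutathione reductase GSR rose by 0.80 (SE 0.10), the pump ABCC2 by 1.07 (SE 0.16), and the transferrin receptor TFRC fell by 0.57 (SE 0.14). In the YAP list 13 rose and 7 fell of 25, and both inhibitory kinases rose, LATS1 by 1.07 and LATS2 by 1.33, as did AMOTL2 by 1.04, while AXL, a receptor kinase, fell by 0.86.

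Genes of p53 and of the BCL2 family had shares of higher calls near that of all genes, 11 higher and 6 lower of 30 and 6 higher and 5 lower of 17 (5 and 7 with plain read totals), and both medians turn negative with plain read totals, as that of the BCL2 family does with voom. GADD45A, a stress sensor, rose by 1.44 (SE 0.078), SESN1 by 1.32 (SE 0.097) and the death receptor FAS by 1.06 (SE 0.11), while DDB2 fell by 0.70 (SE 0.095). Paralogs that protect cells from death moved apart: BCL2L1 stood at 8.57, 8.79 and 8.65 log2 CPM in siSF3B1_Hx and 7.61, 7.81 and 7.43 in siCtrl_Hx (1.05, SE 0.095), and BCL2L2 at 3.74, 4.09 and 3.94 in siSF3B1_Hx and 5.76, 5.85 and 5.92 in siCtrl_Hx (-1.92, SE 0.096).

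Genes of cell shape and identity leaned upward in part. Of 26 epithelial-mesenchymal state genes 16 rose and 4 fell, at a median of 0.57, and members of both states were among them: the tight junction protein CLDN1 rose by 2.23 (SE 0.26), JUP, plakoglobin, by 1.18 (SE 0.13), SPARC, a matrix protein of mesenchymal cells, by 1.03 (SE 0.12) and the protease MMP14 by 0.91 (SE 0.12), while TJP1 fell by 0.58 (SE 0.069). The fibroblast markers THY1 and RGS5, given above, also differed, and their part in this result was not tested. Ductal genes gave 10 higher and 4 lower of 19, with KRT19 at 0.83 (SE 0.099) and KRT7 at -1.44 (SE 0.17). Among integrins, collagens and laminins 10 rose (17 with the library sets as a block) and 6 fell of 39, with 8 each way under plain read totals. ITGA2, of the collagen receptor, stood at 7.46, 7.81 and 7.74 log2 CPM in siSF3B1_Hx and 9.01, 9.18 and 9.12 in siCtrl_Hx and fell by 1.44 (SE 0.10), COL13A1 fell by 2.11 (SE 0.16) and LAMA4 rose by 1.16 (SE 0.17).

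Translation genes were mixed. Of 79 cytosolic ribosomal protein genes, which have many near-identical copies, 45 rose (28 with plain read totals, 14 with quantile normalization) and 7 fell (12 with plain read totals and with the block, 14 with quantile normalization, 4 without library 8), with a median of 0.21 that was 0.0 with quantile normalization. Mitochondrial ribosomal proteins gave 36 higher and 21 lower of 75, from MRPL44 (1.06, SE 0.073) to MRPS9 (-1.39, SE 0.085). Initiation factors were split, 18 higher and 13 lower of 40 (14 and 17 with plain read totals, where the median turned to -0.07), with the cap-binding EIF4E at 0.85 (SE 0.083), its inhibitor EIF4EBP2 at -1.19 (SE 0.093) and EIF3I at -0.95 (SE 0.070), and so were ribosome biogenesis factors, 17 higher and 13 lower of 44 (14 and 18 with plain read totals, median -0.09), with RRN3, an initiation factor of RNA polymerase I, at 0.89 (SE 0.066) and the polymerase's largest subunit POLR1A at -1.17 (SE 0.074).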

How the data were processed

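RNA of 8 Panc1 libraries was sequenced after a stranded mRNA preparation, per the labels' protocols. The authors deposited log2 CPM per gene and library, with a mean prior count of 1.96 that was read from the values. Per the submitters' processing notes, the tools were edgeR 3.24.3, featureCounts, Subread 1.5.0, STAR 2.7.0a, SAMtools 1.9 and Trimmomatic 0.35, with GRCh38.p13. Whether reads were counted by strand and which annotation was used are not given in the sources used here. Values of genes that share exon sequence with another gene are therefore uncertain.

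The log2 values were tested as deposited with limma 3.58.1 (R 4.3.3) and an intensity trend: all 8 libraries, 1 mean per group, 5 residual degrees of freedom, Benjamini-Hochberg adjustment over 13112 genes with a mean log2 CPM above 0, and calls at an adjusted p under 0.05. SE is the moderated standard error and intervals are 95%. Fold changes include the prior count and understate those of low genes. Whole reads were recovered from the log2 values (100.0% within 0.01 of a whole read) and entered limma's voom and plain read totals as alternatives. Other alternatives were quantile normalization, median centring, no filter, a stricter filter (mean above 1), the hypoxic libraries alone, number sets as a block and each library left out. The fit was run on simulated data in which few genes changed, up or down with equal likelihood. That setting differs from these libraries, so it cannot show how the fit does where most genes change.

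Library numbers fall into sets (1 to 3, 4 to 6, 7 to 9), and number 7 is not analysed here. Deviations from the group means correlated at 0.366, 0.400 and 0.430 between hypoxic libraries of 1 set and at -0.112 to -0.308 between sets. Deviations cancel within a group, so positive values within sets bring negative ones between sets, and the latter are no separate evidence. From the positive values the numbers were taken to pair the libraries, but only in the alternative with the sets as a block. The main fit did not use this pairing, so its standard errors and adjusted p-values are unpaired. Any 2 libraries of a group differed by more than counting noise (chi-square over degrees of freedom 9.82 to 23.1).

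Genes were named by rule: SF3B1, the 12 called genes at each end with a mean of at least 1 log2 CPM and no overlap, the 6 with the largest gain and loss in CPM, genes near 0 reads in 1 group, any member of lists up to 15 genes, and the 5 most changed called members in each direction (and up to 3 that did not pass) of longer lists. The genes, lists and motifs were chosen with earlier results of these data known. Some genes and 1 snoRNA that this rule names are not reported here. Exon overlap and exon number came from GENCODE v29, gene classes and promoters from RefSeq.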

Additional observations from a re-analysis of the deposited data

How the results depend on the processing

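The number of called genes was 8650, and 7794 to 9663 under the alternatives run: 8506 with plain read totals, 8540 with voom, 9301 without a filter, and 7794 to 8477 with 1 library left out. The log2 fold change of SF3B1 ranged from -3.56 to -3.34. Voom gave 8272 of the main calls in the same direction and plain read totals 7606. With the number sets as a block, 9663 genes were called, among them all 8650 in the same direction, and counts of list members that the block moved stand beside them; it ended no call. Voom called 4218 genes higher and 4322 lower. Of 1984 counts of called list members under the alternatives, 1883 lay within 1.5 times the main count. Of 214 called genes named in the text, 213 were called under every alternative run, and CD68 was not with plain read totals (0.31), with quantile normalization (0.33) or without library 6, 9, 2 or 8 (0.32 to 0.45). The named genes were mostly picked for large called changes, so this share does not measure how the other calls hold. The median changed sign in 11 lists with plain read totals, 6 with quantile normalization and 3 with voom, and the cause was not tested. Depth limits genes near the filter: below it, 2064 listed genes were not tested.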

Other observations

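Genes without introns were called too. Of 27 tested genes on a list of intronless genes, 16 rose (10 with plain read totals or without siSF3B1_Hx library 9, and 9 without siCtrl_Hx library 2) and 6 fell. Their median was 0.47 on the log2 scale. SOX4, a transcription factor of progenitor cells, stood at 6.79, 6.63 and 6.66 log2 CPM in siSF3B1_Hx and 5.96, 5.88 and 5.59 in siCtrl_Hx and rose by 0.88 (SE 0.097). Its relative SOX12 stood at 5.72, 5.25 and 5.27 in siSF3B1_Hx and 6.01, 5.98 and 6.10 in siCtrl_Hx and fell by 0.61 (SE 0.12). Neither gene's groups overlapped. Histone genes have near-identical copies that can share reads, so their values are uncertain: of 10 tested on a histone list, 4 rose and 2 fell. H2BC12 stood at 6.71, 6.85 and 6.78 in siSF3B1_Hx and 5.51, 5.63 and 5.57 in siCtrl_Hx (1.21, SE 0.065), and H1-10, a linker histone, at 4.49, 4.13 and 4.36 in siSF3B1_Hx and 5.51, 5.67 and 5.59 in siCtrl_Hx (-1.26, SE 0.10).

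Growth factor ligands of the EGF family gave a small set: EREG, epiregulin, stood at 3.34, 3.47 and 3.40 log2 CPM in siSF3B1_Hx, 2.39, 2.33 and 2.91 in siCtrl_Hx and 4.13 and 4.03 in siCtrl_Nx, so the siSF3B1_Hx libraries lay between the other groups. EREG rose by 0.86 (SE 0.15). Of 10 tested ligands and receptors 3 rose (30.0%) and 2 fell (20.0%), both shares below the 35.0% and 30.9% of all genes. Their log2 fold changes ran from -1.13 to 0.86. In the chaperonin that folds actin and tubulin, CCT3 rose by 0.45 (SE 0.063) and the prefoldin subunit VBP1 by 0.59 (SE 0.055), and 8 of 14 members rose and 4 fell. Arginyl-tRNA synthetase RARS1 rose by 0.88 (SE 0.070) and the valyl enzyme VARS1 fell by 0.63 (SE 0.10), in a list with 7 higher (4 with plain read totals, 11 with the library sets as a block) and 8 lower of 23. The main shares of this list, 30.4% higher and 34.8% lower, were near those of all genes.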
